A study of Mus musculus with 5 samples.

Results

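Among the hnRNPA1 peaks of Zhx1-KO cells, 717 genes carried 3 or more peaks each while their names stood in neither peak list of the control cells. These control-unnamed genes held 2704 of the 51545 hnRNPA1 peaks of Zhx1-KO cells, a share of 5.25% (Wilson 95% interval 5.06 to 5.44%). They were chosen by the gene name that the files give to each peak. A name had to occur on 3 or more rows of the Zhx1-KO list and on no row of the control hnRNPA1 or control ZHX1 list, and 152 Zhx1-KO peaks with an empty or NA name were left out. The choice rests on the peak lists themselves, so the numbers of peaks and the absence from the control lists are a description and not a result. Of 18498 names in any of the 3 lists, 3.88% met the rule, and of the 6249 names with 3 or more Zhx1-KO peaks, 11.5% did. The other 5532 of these names, with 36270 peaks, also stood in a control list and are used below as the set to compare with.

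The 5 samples came from cardiac progenitor (CP) stage cells made from the mouse embryonic stem cell line 46C. They were an anti-hnRNPA1 ChIP in Zhx1-KO cells, in which CRISPR/Cas9 guides at the transcription start and stop sites of Zhx1 had been used to remove the gene, an anti-hnRNPA1 ChIP and an anti-Zhx1 ChIP in 46C-Ctrl cells, and an input of each line, which had no peak list and was not analysed here. The comparison asked which genes hnRNPA1 occupied at the CP stage when ZHX1 was lost. Each list came from 1 library, so no difference here has a replicate check, no test between the lines was possible, and the intervals cover counting error only. The lists gave positions, widths and names but no counts or heights, and the depth is unknown. They held 51545 peaks for Zhx1-KO hnRNPA1, 14662 for 46C-Ctrl hnRNPA1 and 23244 for 46C-Ctrl ZHX1, with median widths of 271, 257 and 259 bp. A longer list names more genes, and list length and loss of ZHX1 cannot be told apart here. Zhx1 itself was named once in the Zhx1-KO list (chr15:58079153-58079376) and once in the control ZHX1 list (chr15:58056874-58057324), which does not check the knockout.

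hnRNPA1 is a nuclear RNA-binding protein of the A/B family of heterogeneous nuclear ribonucleoproteins (hnRNPs). It acts in splicing, messenger RNA export and microRNA processing, prefers RNA with the core UAGGG, and can bind single-stranded and G-quadruplex DNA, including telomeric repeats. ZHX1 is a nuclear protein with zinc fingers and homeodomains that acts mostly as a transcriptional repressor. A peak in a ChIP list marks DNA that was recovered with the protein, whether the protein lay on the DNA or on RNA being made there.

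The names in the lists followed the nearest gene start rather than the gene that a peak lies in. Of the member peaks, 93.5% had the named gene as their nearest curated RefSeq transcription start site (TSS), against 89.0% of the peaks of the other names. Of the 715 control-unnamed genes that could be placed on the genome, 90 had a control peak centred inside their own gene body all the same, 50 of them a control hnRNPA1 peak and 61 a control ZHX1 peak. This was 12.6% (10.4 to 15.2%), against 2965 of 5507, 53.8% (52.5 to 55.2%), of the other names. The rule largely fixes this difference, as each of the other names was given to a control peak by choice of the set. Ptprt, a receptor phosphatase gene of 1139160 bp, held 9 such control peaks, Xkr6 held 6, Gabrb1, a subunit of the GABA receptor channel, held 5, and Stag1, a cohesin subunit, held 4. Xkr6 and Stag1 were picked after their values were seen. "Control-unnamed" therefore means that no control peak was given the name of the gene, and not that the gene was free of control peaks.

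The sequences below show what DNA these peaks covered, for members that the results turn on: an hnRNP gene, an RNA-processing gene, a cyclin gene and signalling or heart genes. Within each gene the peak was picked after its motifs were seen, among single-copy peaks of up to 300 bases outside UTRs, so TAGGG is more frequent here than in the member peaks as a whole, of which 35.5% held it and 9.28% held 2 or more copies. They were read from GRCm38 at the deposited coordinates, on the plus strand, and each lay in single-copy sequence, in which the median 32-base word occurs once in the genome. Capitals mark TAGGG, the DNA form of the hnRNPA1 core, or its reverse complement CCCTA. In the Ccne2 peak they mark CCAAT. The Hnrnpa3 peak at chr2:75658585-75658828 lay 0.399 kb before the gene and held no TAGGG. The Bmp2 peak shown lay far before the start of Bmp2, in an intron of another annotated gene.
Hnrnpa3: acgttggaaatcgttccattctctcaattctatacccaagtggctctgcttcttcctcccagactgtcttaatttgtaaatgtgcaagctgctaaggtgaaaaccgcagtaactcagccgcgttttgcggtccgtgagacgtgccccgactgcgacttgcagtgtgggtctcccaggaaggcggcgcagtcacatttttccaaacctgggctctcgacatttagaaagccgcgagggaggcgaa
Drosha (chr15:12835743-12835966, in an intron): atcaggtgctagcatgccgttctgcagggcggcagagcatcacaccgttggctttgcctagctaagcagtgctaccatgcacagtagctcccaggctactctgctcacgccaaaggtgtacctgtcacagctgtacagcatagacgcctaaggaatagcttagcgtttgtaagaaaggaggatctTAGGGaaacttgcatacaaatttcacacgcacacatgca
Ccne2 (chr4:11190922-11191191): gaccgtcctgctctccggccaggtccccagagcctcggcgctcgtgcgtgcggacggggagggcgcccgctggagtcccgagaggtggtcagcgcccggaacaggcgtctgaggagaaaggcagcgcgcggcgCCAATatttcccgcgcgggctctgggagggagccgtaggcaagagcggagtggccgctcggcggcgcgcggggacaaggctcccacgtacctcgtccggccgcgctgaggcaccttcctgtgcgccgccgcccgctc
Bmp2 (chr2:133447132-133447355): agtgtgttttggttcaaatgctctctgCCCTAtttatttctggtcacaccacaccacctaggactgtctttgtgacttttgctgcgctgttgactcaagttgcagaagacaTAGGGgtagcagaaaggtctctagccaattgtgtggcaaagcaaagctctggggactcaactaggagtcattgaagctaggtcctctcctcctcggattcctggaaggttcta
Tcf7l1 (chr6:72723645-72723905, in an intron): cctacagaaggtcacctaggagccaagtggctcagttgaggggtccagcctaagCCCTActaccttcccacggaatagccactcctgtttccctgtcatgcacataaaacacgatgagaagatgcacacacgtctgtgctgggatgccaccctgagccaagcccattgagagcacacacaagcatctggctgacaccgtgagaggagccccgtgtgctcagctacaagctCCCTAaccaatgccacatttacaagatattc
Tpm1 (chr9:67045254-67045547, in an intron): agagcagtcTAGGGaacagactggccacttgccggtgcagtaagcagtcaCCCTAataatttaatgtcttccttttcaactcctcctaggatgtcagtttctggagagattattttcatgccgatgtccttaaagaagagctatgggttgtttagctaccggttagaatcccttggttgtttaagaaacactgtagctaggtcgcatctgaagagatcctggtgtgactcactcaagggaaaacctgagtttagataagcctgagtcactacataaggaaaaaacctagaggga

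TAGGG was no more frequent in the member peaks than in the rest. It occurred in 960 of 2704 member peaks, 35.5% (33.7 to 37.3%), against 35.4% (34.9 to 35.9%) of the peaks of the other names. Among peaks of the smallest width, 224 bp, the shares were 29.3% (26.1 to 32.7%) and 28.2% (27.4 to 29.1%). The G-quadruplex pattern (4 runs of 3 or more G, or of C on the other strand, 1 to 7 bases apart) occurred in 6.32% (5.47 to 7.31%) of member peaks and 4.94% (4.72 to 5.16%) of the others, and CCAAT, searched on both strands as well, in 35.8% (34.1 to 37.7%) and 40.1% (39.6 to 40.6%). Among 224 bp peaks those shares were 4.95% (3.60 to 6.78%) against 3.801% (3.45 to 4.19%) for the G-quadruplex pattern, whose intervals overlap, and 28.3% (25.2 to 31.7%) against 32.7% (31.8 to 33.7%) for CCAAT. Over all Zhx1-KO peaks of any width the G-quadruplex pattern occurred in 5.525%, inside the member interval, and CCAAT in 38.2%. In RefSeq promoter windows of 300 bases, TAGGG stood in 32.6% of the 611 windows of control-unnamed genes, 35.1% of those of the other names and 36.3% of all 32851 windows. The G-quadruplex pattern stood in 20.1% (17.1 to 23.5%) of the windows of control-unnamed genes and 24.4% (23.3 to 25.6%) of those of the other names, the opposite order to the peaks, and CCAAT in 35.02% (31.4 to 38.9%) and 36.2% (34.9 to 37.5%). The telomeric repeat also holds TAGGG. In all, 7 member peaks held 6 or more copies: at Wls, Gm20939, Rbmy, Fcrl5, Mir7211, Plcxd1 and Fam120aos, with 45, 22, 19, 16, 15, 12 and 6 copies. These 7 were picked after their values were seen. They made up 0.259% (0.126 to 0.533%) of member peaks, and such peaks made up 0.345% (0.289 to 0.410%) of those of the other names.

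Most control-unnamed genes sat at the lower bound of the rule. Of the 717, 428 had 3 peaks, 154 had 4, 66 had 5 and 69 had 6 or more, up to 10. Just outside the rule, 1142 of the 3280 names with 2 Zhx1-KO peaks stood in neither control list. The share of names in neither control list was lower for names with more Zhx1-KO peaks: it was 47.8% at 1 peak, 34.8% at 2, 22.4% at 3, 13.4% at 4, 8.05% at 5, 3.44% at 8, 1.52% at 9 and 1.58% at 10. None of the 737 names with 11 or more peaks was absent from both control lists, although single names in the Zhx1-KO list reached 75 peaks. The same rule turned round gave far fewer names, but the lists differ in length (51545, 14662 and 23244 peaks). Turned round, a name had also to be absent from the longest list. Cut to its 14662 widest peaks, the Zhx1-KO list gave 54 names. For Zhx1-KO hnRNPA1 it took 717 of 6249 names, for 46C-Ctrl hnRNPA1 12 of 1364 (0.880%, 0.504 to 1.53%), and for 46C-Ctrl ZHX1 55 of 2651 (2.08%, 1.60 to 2.69%).

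**Figure D1:**
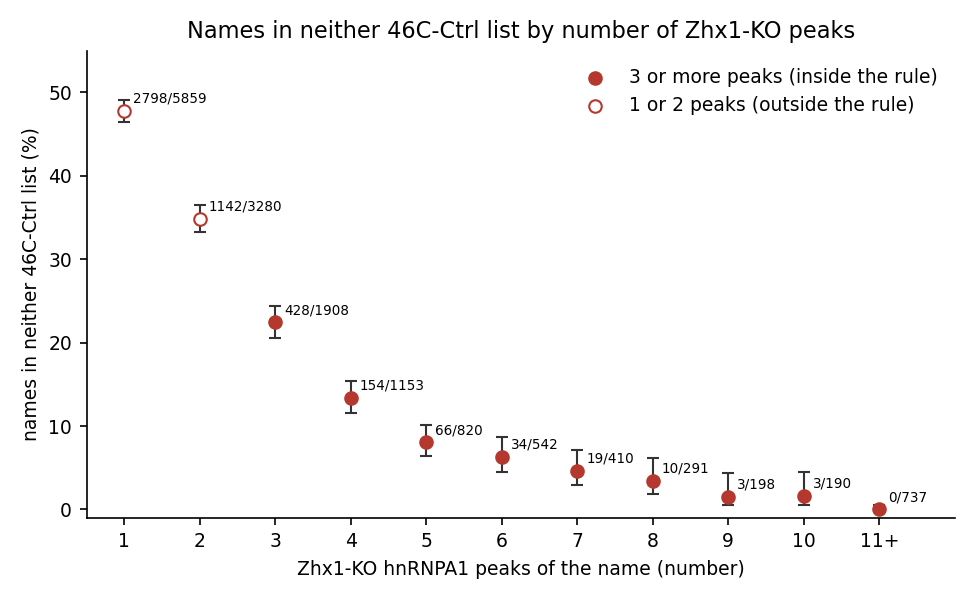
Share of names (%) that stood in neither 46C-Ctrl list, by the number of Zhx1-KO hnRNPA1 peaks of the name. Points (filled inside the rule, open outside it) are shares with Wilson 95% intervals, the fractions give names in neither list over all names, and the share falls to 22.4% at 3 peaks and to 0 of 737 at 11 or more.

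The 15 genes with the most peaks had 8 to 10 each and belonged to no single family. Gm12296, a long noncoding RNA gene, and Tex47, a testis-expressed gene, had 10 peaks each, as did H2afb3, which encodes a short histone H2A variant and was placed through a RefSeq synonym. Gm14393, Vgll3 (a cofactor of TEAD transcription factors) and Saxo1 (a microtubule-binding protein of cilia) had 9. Lrrc72, Bmp2, 4930590A17Rik, Glycam1 (a mucin-like ligand of L-selectin), Zmynd8 (a reader of modified histones), Ano5 (a membrane protein of the anoctamin family), Vps13d (a lipid transfer protein), Eqtn (a protein of the sperm acrosome) and Drosha had 8. Slc25a36, a mitochondrial nucleotide carrier, also had 8, but with a smaller summed width. All 10 peaks of H2afb3 and all 9 of Gm14393 lay in multi-copy sequence, that is, DNA in which the median 32-base word occurs 2 or more times in the genome, against 1 of 8 for Zmynd8 and Vps13d.

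The peaks of these genes were spread in different ways. All 10 peaks of Gm12296 lay before its start, between 2.63 and 142 kb away, and all 10 were inside Dnah9, the neighbouring gene for an axonemal dynein heavy chain. Dnah9 itself was named by 8 Zhx1-KO peaks, 1 control hnRNPA1 peak and 2 control ZHX1 peaks. The peaks of Tex47 reached from 88.4 to 738 kb before its start, and 6 of them lay inside Zfp804b, which the control lists named 2 and 3 times. Vps13d was the opposite case: 7 of its 8 peaks lay inside the gene, from 25.6 to 132 kb past its start, at 25.6, 38.0, 42.0, 46.8, 57.3, 79.7 and 132 kb. One control hnRNPA1 peak was also centred in the Vps13d body.

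**Figure D2:**
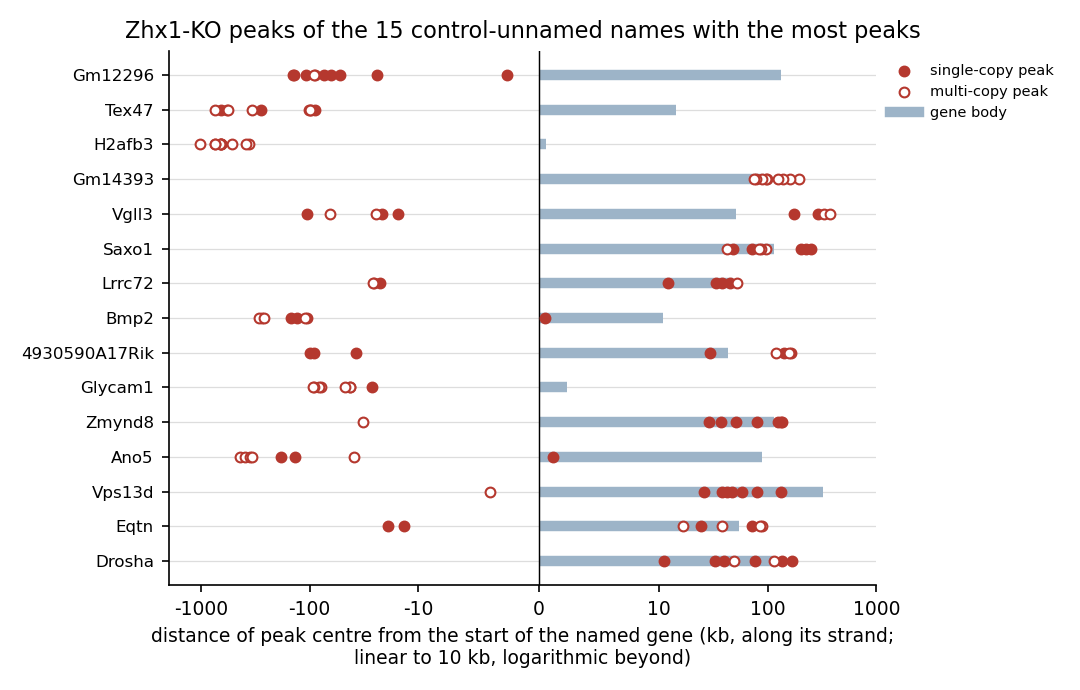
Positions of the Zhx1-KO hnRNPA1 peaks of the 15 control-unnamed genes with the most peaks, as the distance of each peak centre from the outer RefSeq start of the named gene (kb along its strand, linear to 10 kb and logarithmic beyond). Filled points are single-copy peaks, open points multi-copy peaks and bars gene bodies; those of Gm12296, Tex47, H2afb3 and Glycam1 all lie before the start, and 7 of 8 of Vps13d lie inside the gene.

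Drosha encodes the nuclear ribonuclease that cuts primary microRNAs, a step in which hnRNPA1 is known to take part for some of them. Its 8 peaks stood 11.1, 32.3, 39.5, 48.4, 75.8, 114, 134 and 166 kb past its start, 5 of them inside the 110488 bp gene and 6 of them single-copy, and the nearest control peak was 22.7 kb from the first.

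Of the hnRNP and splicing factor list, 11 genes had 3 or more Zhx1-KO peaks and 3 of them were control-unnamed, 27.3% (9.75 to 56.6%): Hnrnpk, Hnrnpab and Hnrnpa3. Hnrnpk, a poly(C)-binding hnRNP, had 4 peaks, at 2.15 and 0.334 kb after its start and 27.3 and 68.5 kb before it. The peak near the start also lay in Rmi1. Hnrnpab had 3 peaks within 8.98 kb, all of them within 2 kb of some annotated TSS and 13.1 to 19.0 kb from the nearest control peak. Hnrnpa3, a close relative of hnRNPA1, had peaks 37.4, 32.3 and 0.399 kb before its start, 72.5 to 83.7 kb from any control peak. The remaining 8 genes of the list stood in a control list, among them Ptbp2 with 18 Zhx1-KO, 4 control hnRNPA1 and 5 control ZHX1 peaks. Over the wider RNA-binding family by symbol, 12 of 66 names with 3 or more peaks were control-unnamed, 18.2% (10.7 to 29.2%) against 11.5% for all names, a difference within the counting error. Besides those above they included Rbmy with 7 peaks, Larp4b, Lsm3 and Rbm11 with 4, and Ddx6, Larp1b, Cpsf4l and Sf3b5 with 3.

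Bmp2 and Tpm1 were the control-unnamed genes of the heart lists. Of the cardiac progenitor and heart regulator list, 31 genes had 3 or more Zhx1-KO peaks and Bmp2 alone was control-unnamed, 3.23% (0.572 to 16.2%) against 11.5% of all names, which lies in the interval. Bmp2 encodes a ligand of the TGF-beta superfamily that induces the heart field. It had 8 peaks over 293.6 kb, at 293, 273, 264, 147, 131, 110 and 105 kb before its start and 0.54 kb after it. They were 16.8, 37.2, 46.2, 163, 178, 200, 205 and 310 kb from the nearest control peak. Those at 293, 264 and 110 kb before the start were multi-copy. Of 21 contraction and calcium handling genes with 3 or more peaks, Tpm1, a tropomyosin of the thin filament, was the only one, 4.76% (0.846 to 22.7%). Its 4 peaks stood 4.27, 5.94, 14.4 and 28 kb past the outer start, all single-copy, the second at the start of a shorter transcript. The control peaks were 59.2 to 71.1 kb away.

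The shares of the signalling lists did not stand apart from the 11.5% of all names. Of 17 TGF-beta, BMP and Nodal genes with 3 or more Zhx1-KO peaks, 3 were control-unnamed, 17.6% (6.19 to 41.0%): the ligand Bmp2, the activin type II receptor Acvr2b and the type I receptor Acvrl1. Acvrl1 had peaks 2.89 and 1.33 kb before its start and 6.28 kb after it. Acvr2b had peaks 9.26 and 2.77 kb before its start and 11.7 kb after it, with a control hnRNPA1 peak inside its body. Of 28 Wnt genes, 3 were control-unnamed, 10.7% (3.71 to 27.2%): Dkk1, a secreted inhibitor of Wnt receptors; Rspo4, an R-spondin that raises Wnt signalling; and Tcf7l1, a transcription factor that represses Wnt targets. The 3 peaks of Dkk1, at 34.2, 171 and 182 kb before its start, all lay inside Prkg1, the next gene, and those of Tcf7l1 stood 65.3 and 77.4 kb inside the gene and 21.3 kb before it.

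The other lists held too few genes to be set against the 11.5% of all names, which lay inside the interval of each list with any such gene. Maml1, a Notch coactivator, was 1 of 8 Notch genes with 3 or more peaks, and Ccne2, cyclin E2, was 1 of 10 cell cycle genes. Smtn, a smooth muscle cytoskeletal protein, was 1 of 2 smooth muscle genes, though a control hnRNPA1 peak lay in its body, and Ckap4 was 1 of 13 genes of the fibroblast list. None of 16 FGF and receptor tyrosine kinase genes, 9 neural, 8 pluripotency, 8 endothelial, 6 endoderm or 2 mesoderm genes with 3 or more Zhx1-KO peaks was control-unnamed. The Zhx and NF-Y list had no gene with 3 or more. None of the list shares was adjusted for the number of peaks per name.

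By family, olfactory receptor genes stood furthest from the background of 11.5%. The family shares were not adjusted for the number of peaks per name. Over all names the share was 22.4% at 3 peaks, 8.05% at 5 and 0 of 737 at 11 or more. What part this had in the differences between families was not tested. Of the 53 olfactory receptor names with 3 or more Zhx1-KO peaks, 21 were control-unnamed, 39.6% (27.6 to 53.1%). They held 75 peaks, with 7 at Olfr43, 5 at Olfr385 and Olfr444, and 4 at Olfr1318, Olfr392, Olfr403 and Olfr59. Of these, Olfr43, Olfr385, Olfr392, Olfr403 and Olfr59 lie on chromosome 11. Of the 75 peaks, 64% (52.7 to 73.9%) were multi-copy, against 27.1% (25.4 to 28.8%) of all member peaks, and the sources do not say how reads with near-equal placements were treated beyond the removal of non-unique reads. The vomeronasal receptors, pheromone receptors that also lie in clusters, gave 10 of 80 names, 12.5% (6.93 to 21.5%), with 71.1% multi-copy peaks.

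The family of ubiquitin-system genes by symbol (tripartite motif, ubiquitin and F-box) gave 20 of 114 names, 17.5% (11.7 to 25.6%), just above the background, and cytokines and their receptors 7 of 33, 21.2% (10.7 to 37.8%), whose interval holds it. Zinc finger genes gave 16 of 133 (12.03%), kinases and phosphatases 16 of 149 (10.7%), solute carriers 13 of 113 (11.5%) and homeobox genes 8 of 64 (12.5%), close to the background. Predicted genes and RIKEN clones gave 102 of 1177, 8.67% (7.19 to 10.4%). At the low end, none of the 47 names that the symbol patterns took as chromatin regulators (0 to 7.56%) was control-unnamed. The same held for the 48 names taken as axon guidance genes (0 to 7.41%). The patterns do not take every such gene. Zmynd8, a reader of modified histones, was control-unnamed but fell in no family, so the 0 does not describe chromatin regulators as a class. Collagen, laminin, integrin and matrix genes gave 3 of 73, 4.11% (1.41 to 11.4%): Adam22, Itgb2l and Col9a3. Fox, Sox, T-box, Gata, bHLH and Tcf genes gave 3 of 61, 4.92% (1.69 to 13.5%), whose interval holds the background: Id1, Tcf15 and Tcf7l1. These intervals are not adjusted for the number of families compared, nor the shares for the number of peaks per name.

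**Figure D3:**
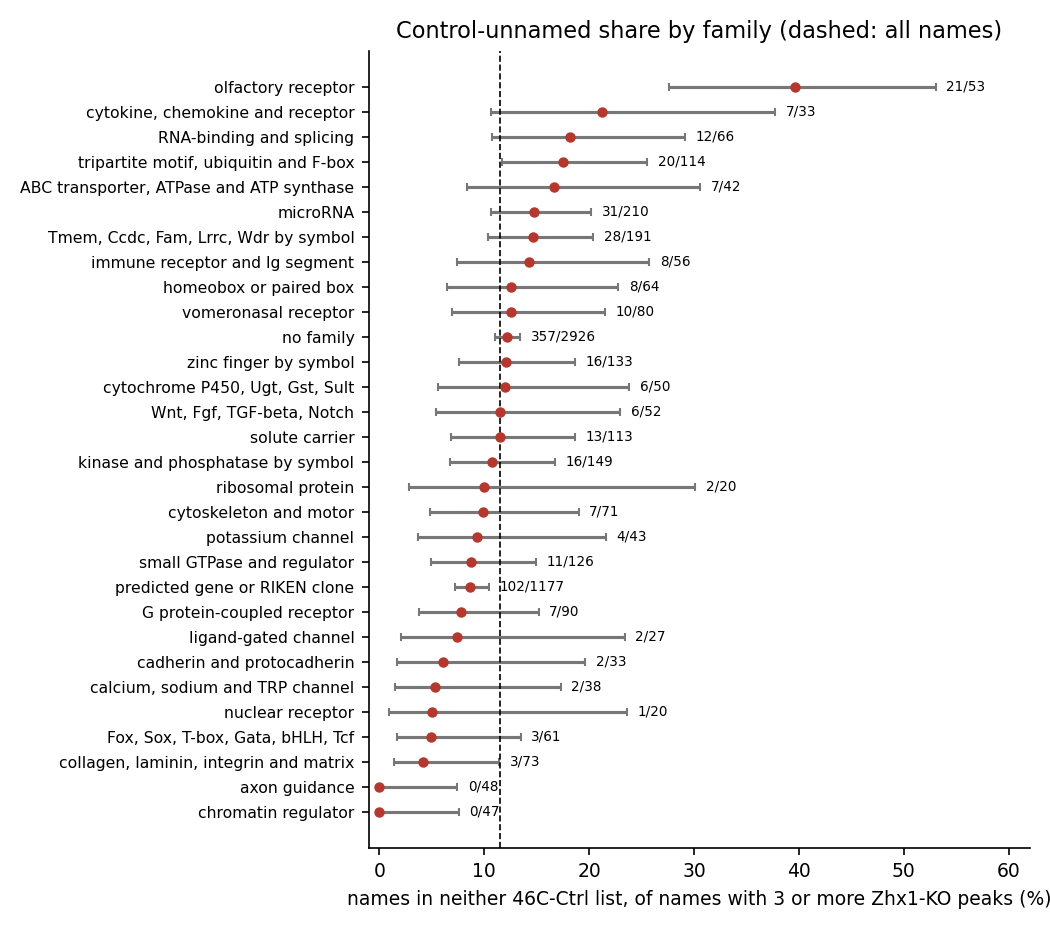
Control-unnamed names as a share (%) of the names with 3 or more Zhx1-KO hnRNPA1 peaks, for families by gene symbol with 20 or more such names. Points are shares with Wilson 95% intervals, fractions give the counts and the dashed line is the 11.5% of all names. Olfactory receptors stand at 39.6%, and the names taken by symbol as chromatin regulators and axon guidance genes at 0. Control-unnamed genes that the symbol patterns miss, such as Zmynd8, are not counted in these families. Shares are not adjusted for the number of peaks per name.

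The homeobox members included the oocyte homeobox genes Obox5 and Obox6 with 7 and 5 peaks, Barx2 with 6, Pou5f2 with 5, Lhx9 and Dlx2 with 4 and Dlx1 with 3. Obox5 and Obox6 are neighbours, and 6 of their 12 peaks were multi-copy. Dlx1 and Dlx2, a pair of homeobox genes that share regulatory DNA in the forebrain, also lie side by side. Dlx2 had 1 peak 0.088 kb past its start and 3 more 39.2, 45.7 and 75.2 kb before it, and the 3 peaks of Dlx1 lay 18.4, 29.4 and 32.9 kb before its start, inside Metap1d. All 7 peaks of the pair were single-copy and the nearest control peak was 61.3 kb away.

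MicroRNA genes gave 31 of 210 names, 14.8% (10.6 to 20.2%), an interval that holds the 11.5% of all names. Hairpin positions from RefSeq were used for 30 of them, 25 from its miRNA sequences and 5 from its gene table. No peak of these genes overlapped their hairpin, 8 of the 30 genes had a peak within 2 kb of it, and the nearest peak was at a median of 9.39 kb (0.276 to 174.3 kb). Mir107 had peaks 0.455 to 7.56 kb from its hairpin, all 3 inside its host gene Pank1. Mir100 had its nearest at 4.04 kb, Mir140 at 9.22 kb and Mir551b at 48.5 kb. The mature forms of the first 3, all conserved in vertebrates, are given with the seed (bases 2 to 8) in capitals; the seeds differ, so these 3 do not belong to one seed family.
mmu-miR-107-3p: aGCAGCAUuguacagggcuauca
mmu-miR-100-5p: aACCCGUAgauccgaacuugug
mmu-miR-140-3p: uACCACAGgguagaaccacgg
Mir140 lies inside Wwp2, another control-unnamed gene, which encodes an E3 ubiquitin ligase, and the pair had 6 peaks.

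Control-unnamed genes covered shorter stretches of genome than the other names with as many peaks. The stretch of a gene is the DNA that lies nearer to its TSSs than to those of any other curated gene, and it is the room in which a peak takes that name. Its median was 66.3 kb for the control-unnamed genes and 171 kb for the other names. At 3 peaks the medians were 54.3 and 96.7 kb, at 4 peaks 72.1 and 122.5 kb, at 5 peaks 96.3 and 152 kb, and at 6 to 10 peaks 116 and 253 kb. The stretches of the members came to 73.7 Mb in all. Zhx1-KO peaks with their names, wherever these lay, came to 36.6 per Mb of stretch, against 23.4 per Mb for the other names. Over the genome there were 19.5 per Mb. The median gene length was 21.4 kb (quartiles 6.63 and 50.1 kb) for control-unnamed genes and 36.8 kb (10.5 and 109.5 kb) for the others. All names of the Zhx1-KO list, whatever their number of peaks, had a median gene length of 21.3 kb and a median stretch of 68.1 kb, so the control-unnamed genes were of ordinary size and the other names with 3 or more peaks were large. As the rule asks for 3 or more peaks and for no control peak of the same name, size, peak density and membership are linked by the rule itself.

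**Figure D4:**
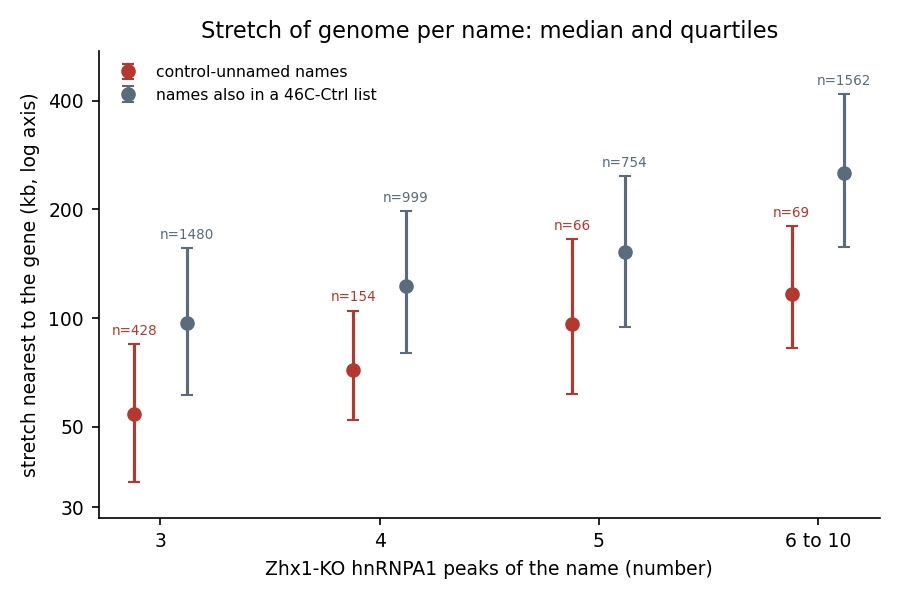
Stretch of genome nearest to the TSSs of a gene (kb, log axis) by number of Zhx1-KO hnRNPA1 peaks, for control-unnamed names (red) and for names also in a 46C-Ctrl list (grey). Points are medians, bars run between the quartiles and n is the number of names; in each of the 4 classes the control-unnamed median is the lower, 54.3 against 96.7 kb at 3 peaks.

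The peaks of one control-unnamed gene lay close together. Neighbouring peak centres were 11.03 kb apart at the median, against 21.4 kb for the other names, and 930 of 1986 gaps, 46.8% (44.6 to 49.0%), were 10 kb or less, against 30.5% (29.96 to 30.98%). The difference was of like size at each number of peaks: 47.8 against 31.9% at 3, 48.9 against 33.2% at 4, 46.0 against 31.6% at 5 and 43.0 against 29.1% at 6 to 10. With multi-copy peaks left out the shares were 44.2 and 24.0%. Gaps of 1 kb or less, which can be parts of one broad site, made up 4.38% (3.57 to 5.37%) and 2.75% (2.57 to 2.94%). From first to last peak, members on 1 chromosome spanned a median of 37.0 kb (quartiles 20.1 and 66.3 kb), with 80 under 10 kb and 34 over 200 kb. Closer spacing goes with shorter stretches, and its part in the difference was not tested.

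**Figure D5:**
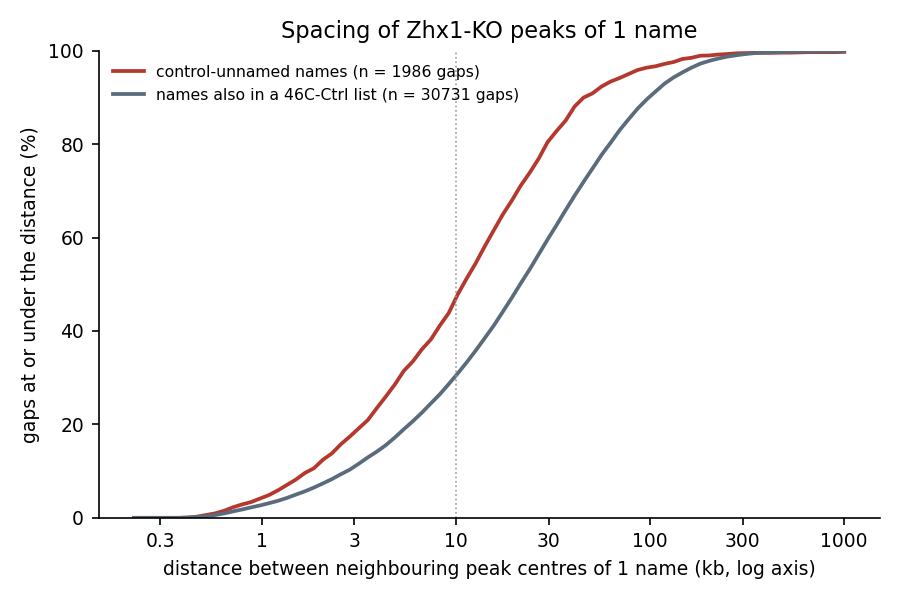
Cumulative share (%) of the distances between neighbouring Zhx1-KO hnRNPA1 peak centres of one name (kb, log axis), for control-unnamed names (red, 1986 gaps) and names also in a 46C-Ctrl list (grey, 30731 gaps). At the dotted line, 10 kb, the curves stand at 46.8 and 30.5%.

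The extremes of the span were mostly repeated DNA. The shortest spans were those of the vomeronasal receptor Vmn2r7 (1.29 kb), the glycine receptor subunit Glra4 (1.36 kb), Ms4a6d (2.16 kb), Haus7 (2.25 kb) and Mir5100 (2.89 kb). All 3 peaks of each of the first 4 were multi-copy. At Mir5100 the 3 peaks were single-copy and lay inside Top3a, a DNA topoisomerase gene. Neat1, the long noncoding RNA that builds paraspeckles, is a single-copy example of a dense cluster: 5 peaks over 8.64 kb, at 1.2, 2.25, 3.18, 4.50 and 9.84 kb past its start and all inside the transcript. The longest spans were on the sex chromosomes. Gm20865 reached over 44470 kb, Sly, a gene for a spermatid protein, over 20190 kb, Gm20877 over 5339 kb and Rbmy over 2283 kb on the Y chromosome, and Gm15127 over 1141 kb on the X chromosome. Of the peaks of these 5 genes, only 1, at Rbmy, was single-copy. The names of multi-copy families on the Y chromosome can stand at many places, so these spans are not those of one gene.

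Peaks at control-unnamed genes were more often in or near genes than those of the other names with 3 or more peaks. They lay within 2 kb of an annotated TSS in 504 of 2704 cases, 18.6% (17.2 to 20.2%), against 10.4% (10.0 to 10.7%) of the peaks of the other names and 14.7% of all Zhx1-KO peaks. With multi-copy peaks left out this was 23.02 against 12.1%. By position of the peak centre, 46.1% against 39.3% lay in introns, 4.99 against 2.13% in coding sequence, 3.25 against 1.43% in UTRs and 42.2 against 55% between genes. Over all Zhx1-KO peaks, 3.74% lay in coding sequence and 50.1% between genes. Names with 1 or 2 peaks are in neither set and enter only the shares of all Zhx1-KO peaks. The median distance to an annotated TSS was 8.17 against 18.15 kb. Shorter stretches (median 66.3 against 171 kb), which the rule favours, go with nearer TSSs, and their part in these differences was not tested. The promoter share of members on 4 or more peaks was 16.0%, and the shares were not compared at equal numbers of peaks per name. Only 7.32% of member peaks lay within 2 kb of the start of the gene they are named for, and 36.1% lay inside that gene, 39.1% before its start and 24.7% past its end. Of the peaks of the other names, 26.75% (26.3 to 27.2%) lay inside their own gene. In all, 173 genes had a peak within 2 kb of their own start. Counting any TSS within 2 kb, 363 genes had no such peak, 235 had 1 and 119 had 2 or more.

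Slc25a36 had the most promoter peaks, 5 of its 8, of which 3 were at other transcripts between 69.9 and 123 kb before it. Tmem191c, Ccdc77 and Zswim8 had 4 each. The 4 peaks of Zswim8 all lay in its 17343 bp body, and the control peak nearest to one of them was 1.28 kb away, the smallest distance of any member peak, with a control hnRNPA1 peak inside the body of Zswim8. Vezf1, a zinc finger factor of vessel development, had 5 peaks inside the gene over 10.8 kb, 3 of them in promoters. Epb41 and Adam22 had 3 promoter peaks of 5, and Krt26 3 of 4.

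In 103 genes all peaks lay inside the gene itself, and in 261 none did. Stat3, the transcription factor downstream of LIF and interleukin-6 receptors, was among the first and was picked after its values were seen: all 6 of its peaks were single-copy and intragenic, 4.32, 6.07, 10.4, 13.5, 32.2 and 37.9 kb past the start, with no control peak inside the gene and the nearest 19.8 kb away. At the other end, 486 member peaks, 18.0%, lay inside other genes only, by symbol. For 86 control-unnamed genes 3 or more of the peaks lay in one other gene, and in 54 of 88 such pairs a control list named that other gene. An example, also picked after the values were seen, is Limd2 with 6 peaks in Map3k3, a kinase gene.

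Control peaks lay farther from the member peaks, which the rule largely fixes. No member peak overlapped a control peak (0 of 2704, 0 to 0.142%), against 3.41% of the peaks of the other names. A control peak lay within 10 kb of 2.96 against 35.6% and within 50 kb of 43.4% (41.5 to 45.3%) against 80.3%. The median distance to the nearest control peak was 57.3 against 17.5 kb. Taken by antibody, a control hnRNPA1 peak was within 50 kb of 22.9% and a control ZHX1 peak within 50 kb of 32.1% of member peaks.

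Multi-copy sequence was less common at control-unnamed genes than at the other names with 3 or more peaks, with 27.1% (25.4 to 28.8%) against 35.4% (35.0 to 35.9%) of peaks. Over all Zhx1-KO peaks it was 31.35%, and at members on 4 or more peaks 31.5%. The shares were not compared at equal numbers of peaks per name, and the part of that number in the difference was not tested. Of the 717 genes, 376 had no multi-copy peak, 57 had only multi-copy peaks, and 474 kept 3 or more single-copy peaks. Peak widths were alike, with medians of 272 and 270 bp and 26.9 and 28% at the smallest width. The widest member peaks included 986 bp at Rfx2 (a transcription factor of ciliated cells), 960 bp at Ripk3 (a kinase of necroptosis), 909 bp at Gin1 and 895 bp at A930009A15Rik. Those at Rfx2 and Ripk3 were single-copy. The Gin1 and A930009A15Rik peaks lay wholly in soft-masked repeats, inside Pam and Lgr5.

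By chromosome, member peaks made up between 3.45% of the Zhx1-KO peaks on chromosome 12 and 8.34% on chromosome 19 among the autosomes. On the X chromosome they made up 8.56% (6.995 to 10.4%) and on the Y chromosome 17.2% (12.03 to 24.0%). Control peaks were also sparsest there, with 2.88 per Mb on X and 0.987 per Mb on Y against 14.3 per Mb over the genome. Chromosome 11, the one with the densest Zhx1-KO peaks at 40.8 per Mb, gave the most member genes, 68, but its share of 5.46% (4.85 to 6.13%) was near the 5.25% of all chromosomes.

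Some control-unnamed genes were neighbours, and those named here were picked after the runs were seen. Along the curated RefSeq TSSs there were 26 runs of 2 or more adjacent members with 54 genes in all, and none was longer than 3. Mbl2, Ppp1r2-ps3 and Dkk1 on chromosome 19 formed a run of 3, with 9 peaks. Among the pairs, several joined members of one family: Obox5 and Obox6, the zinc finger genes Zfp781 and Zfp873 (12 peaks each pair), Olfr403 and Olfr43 (11 peaks), Vmn1r212 and Vmn1r213 (8 peaks), Naip2 and Naip5, Skint2 and Skint10, the chemokine genes Ccl6 and Ccl3 (7 peaks each pair), and Olfr1323 and Olfr1324 (6 peaks).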

How the data were processed

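The 3 peak lists were used as the authors deposited them: chromosome, start, end and a gene name per peak, positions on GRCm38, with no count, height or score. Per the labels and methods, reads were trimmed with cutadapt 1.18, those under 50 bases dropped, the rest aligned with Bowtie2 2.3.5.1, and unmapped, non-unique and duplicate reads removed; BWA 0.7.12-r1039 and deepTools 3.3.0 are also named. For the peak caller, its threshold and the use of inputs: not given in the sources used here. Starts were read as counted from 0 and are printed counted from 1.

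Members were names on 3 or more Zhx1-KO peaks and in neither control list. The members and gene lists were chosen with earlier results of these data known, and family patterns were corrected after the members were seen. Annotation was GENCODE M21 (promoters, introns, exons) and RefSeq GRCm38.p6 (names, gene extents, stretches, sequences); "own start" is the outer edge of the RefSeq gene. Copy number is the median count of 32-base words over the chromosomes. Shares carry Wilson 95% intervals, for counting error only. Named genes were those with the most peaks, the extreme spans, the widest peaks, 2 or more promoter peaks, and up to 6 per family or list; others are marked. The rule was tested on simulated data. Python 3.11.15, pandas 2.3.3 and scipy 1.17.1 were used. Alternatives are given in the closing section. Some members and sequences are not reported here.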

Additional observations from a re-analysis of the deposited data

How the results depend on the processing

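The number of control-unnamed genes, 717, depended on the rule. It was 1859, 289 and 135 with 2, 4 and 5 or more peaks, and 2159 when names had to be absent from the control hnRNPA1 list only. It was 54, all among the 717, when the Zhx1-KO list was cut to its 14662 widest peaks, the length of the control hnRNPA1 list. With genes taken from overlap of the peak with the gene body it was 394, of which 121 were among the 717, and with the nearest protein-coding TSS 653, of which 374 were. It stayed within 1.5 times without multi-copy peaks (607, of which 474 were among the 717), without chromosome 11 (649), with peaks within 1 kb counted as 1 (678) and, chosen after seeing the data, without chromosomes X and Y (690). Most shares moved by construction with their own limit. The promoter share was 11.3% at 1 kb and 35.9% at 5 kb, 23.02% without multi-copy peaks and 16.0% for names on 4 or more peaks. The multi-copy share was 22.7% at a median of 5 copies or more, 31.5% for names on 4 or more peaks and 24.0% without chromosomes X and Y. The share of gaps was 29.4% at 5 kb, 68.9% at 20 kb and 44.2% without multi-copy peaks. A control peak overlapped 0% of member peaks, and one was within 10 kb of 2.96% and within 100 kb of 77.0%; without multi-copy peaks it was within 50 kb of 47.0%. TAGGG occurred in 29.3% of peaks of the smallest width, and the stretch in place of the gene body gave a median of 66.3 kb. In all, 22 of 33 alternatives moved a value beyond its counting interval or by over 1.5 times, and 11 did not. Where the same alternative was computed for the other names (5 or more copies, gaps of 5 and 20 kb, and without multi-copy peaks), the order of the control-unnamed and the other names stayed the same. No paired analysis was possible because each group had 1 library, and no replicate could be left out. The lists hold no counts, so depth sets no limit that could be measured here.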
